A study of Mus musculus with 19 samples.

Results

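The 46 genes described here mark the successive segments of the nephron, the filtering and transporting unit of the kidney, and were followed in mouse renal grafts of reprogrammed fibroblasts, in prostate and in fibroblasts. They were chosen by name from what is known of the kidney, with earlier results of these data known. All 46, out of 23284 genes measured in each library, were present in both deposited tables. By role, 4 are podocyte genes, 2 encode nephron lineage factors, 23 belong to the proximal tubule or to its neighbour the thin limb, 4 to the thick ascending limb, 4 to the distal convoluted and connecting tubule, 5 to the principal cells and 3 to the intercalated cells of the collecting duct, and 1 to the juxtaglomerular cells.

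Blood is filtered in the glomerulus through the slit diaphragms of podocytes, and the filtrate passes along the proximal tubule, which recovers phosphate, glucose, proteins and organic anions. The thick ascending limb then takes up salt by the transporter NKCC2 and secretes uromodulin, the distal convoluted tubule takes up salt by NCC, and the collecting duct adjusts water by aquaporins and acid by proton pumps. Each segment has its own transporters, so that a panel of such genes shows which part of a nephron is represented in an RNA sample. Several of these genes also have known sites of expression outside the kidney, so that prostate or fibroblast levels are given beside many of the graft levels.

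The study used RNA-seq to compare prostate tissue and fibroblasts with tissue produced by reprogramming, in 19 libraries. Renal grafts (7 libraries) were labelled as induced mouse epithelial cells with rat urogenital mesenchyme, strain C57BL/6, and were collected after 6 weeks in nude mice; by the study's methods, mouse fibroblasts were exposed to the reprogramming factors KLF4, c-MYC, OCT4 and SOX2, cultured as induced epithelial (iEpt) cells with or without further factors delivered by lentivirus, and placed under the kidney capsule of male hosts. The labels do not state which grafts received these further factors, and groups were taken from the labels alone. The study's supplementary material names grafts 1 to 5 as the recipients, and its methods also list grafts without these factors, which leaves grafts 6 and 7, so that every test below concerns grafts named there as carrying them. Prostate (6 libraries) was C57BL/6 tissue with a labelled duration of 6 weeks, and mouse embryonic fibroblasts (MEFs, 6 libraries) were C57BL/6 cells from midgestation embryos that carried the allele Nkx3-1tm2(LacZ)Mms in 1 copy. Nothing in the labels says whether libraries of a group came from separate animals or cultures, so that p-values measure the spread between these libraries, which may be partly technical.

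Grafts 1 to 5, prostate and MEFs stand in 1 table of 17 libraries and grafts 6 and 7 in another that was normalized separately. Reads counted on genes were 17371428 to 23446530 in grafts 1 to 5, 16767293 to 22512394 in prostate, 20418164 to 26152346 in MEFs, and 6629665 and 9662060 in grafts 6 and 7. Levels are given as the deposited log2 values or as RPM, a gene's reads scaled to the same number of reads on genes in every library, and a gene with 3 reads has a log2 value of 1.68 to 2.34 in the first table. Values at or under that of 3 reads are below what this depth can show, and this floor covers counting error only. The 6 prostate secretory genes examined as a check of the labels summed to 62570 to 109343 RPM in prostate and to 343 to 911 in grafts 1 to 5. MEF libraries 1 to 4 also held 47.3 to 174 RPM of them, against 0.303 to 0.333 in MEF libraries 5 and 6, and member counts are therefore also given without MEF libraries 1 to 4.

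Against prostate, 37 of the 46 members were higher in grafts 1 to 5, 1 was lower, 5 did not pass the test and 3 were too low to be tested. A call required an adjusted p under 0.05 (limma on the log2 values, Benjamini-Hochberg over all genes tested) and a log2 fold change of at least 1. Of all 16353 genes tested, 23.0% were called higher and 10.3% lower. The median log2 fold change of the 43 tested members was 6.28, or 5.45 with the 14 genes that had no prostate library above 3 reads placed at their lower bound, while the median over all genes tested was 0.11. Of these 43, 27 passed the filter on low values through the grafts, and such genes had to differ. Among the 16 whose prostate level alone met the filter, 10 were higher and 1 was lower. In bulk tissue, fewer cells of a type and less RNA per cell cannot be told apart.

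Against MEFs, 38 members were higher, 1 was lower, 4 did not pass and 3 were not tested, where 29.9% of all 16121 genes tested were higher and 12.0% lower. Only 8 of the tested members met the filter by their MEF level, and of these 3 were higher and 1 was lower. The median log2 fold change was 7.85 over the members tested, 6.23 with the 15 genes that no MEF library held above 3 reads at their bound, and 0.26 over all genes. Without MEF libraries 1 to 4 the higher count was 30, since 8 members lost their call (Nphs1, Pax8, Lrp2, Slc12a1, Slc12a3, Avpr2, Cyp24a1 and Cyp27b1). Only MEF libraries 5 and 6 then remained, and the part of this smaller group in the lost calls was not tested. No MEF library held Nphs1 or Cyp24a1 above 3 reads. Without prostate libraries 1 and 4, which are described below, the count against prostate was 36. Quantile normalization turned the split of all called genes from 69.1% higher to 46.1% against prostate and from 71.3% to 45.4% against MEFs, and moved the median of all genes to -0.12 and -0.14, while 36 and 33 members were called higher in these comparisons. The plot of fold changes by member shows both comparisons side by side.

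**Figure D1:**
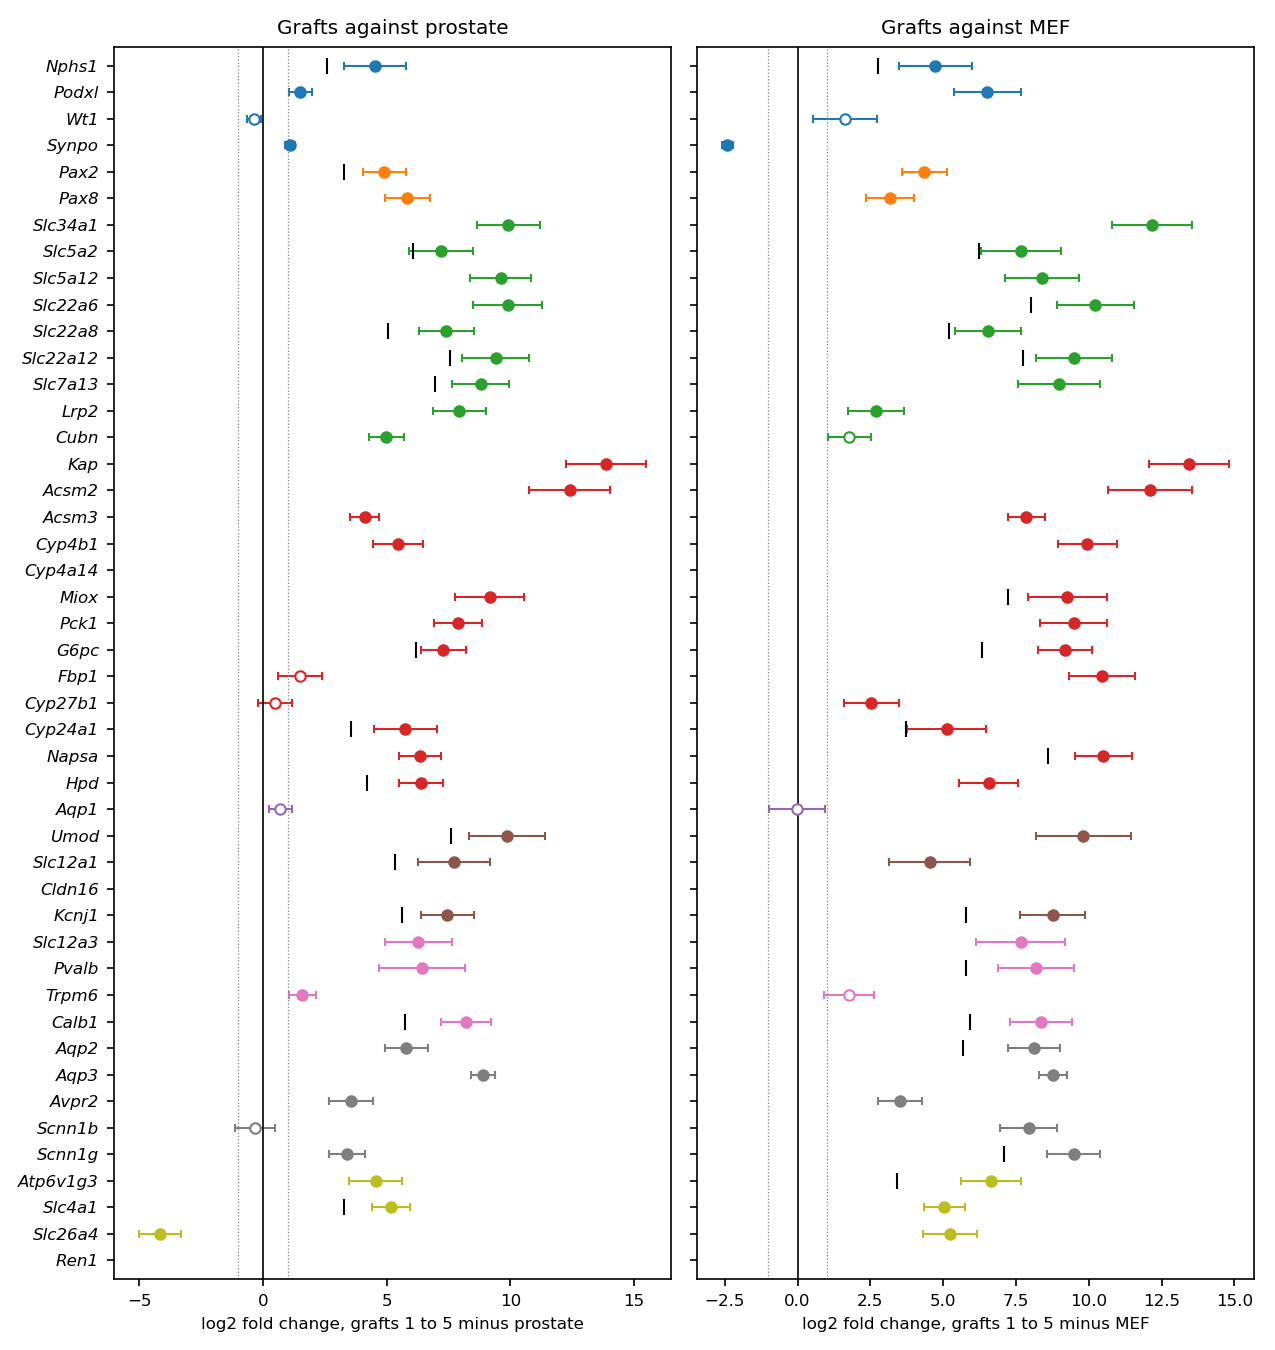
Fitted log2 fold change of each tested member (point) with its standard error (bar) in grafts 1 to 5 against prostate (left) and MEFs (right), colored by segment; filled points passed the test, and black ticks mark the lower bound for genes without a library above 3 reads in the second group. Kap had the largest fold change against prostate (13.86). Slc26a4 was the 1 member called lower than in prostate (-4.15), and Synpo was the 1 member called lower than in MEFs (-2.41).

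All 9 transporters and receptors of the proximal tubule were higher in grafts than in prostate. Of these, 8 passed the filter on low values only through the grafts and had to be higher there in their mean. Slc34a1 encodes NaPi-IIa, which recovers phosphate from the filtrate, and lies in mm9 on chromosome 13, 55501009 to 55516056. The log2 values were 13.24, 7.19, 14.72, 10.44 and 15.21 in grafts 1 to 5 and 1.501 to 4.32 (median 1.90) in prostate, and -1.78 to 2.48 (median 0.03) in MEFs. The groups did not overlap, and graft 5 exceeded graft 2 by 8.02 log2 units. The log2 fold change was 9.92 (SE 1.28, adjusted p = 7.09e-05) against prostate and 12.16 (SE 1.37, adjusted p = 1.91e-05) against MEFs by limma.

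Slc22a6 encodes the basolateral organic anion transporter OAT1, and had log2 values of 10.91, 5.20, 12.62, 8.22 and 13.07 in grafts 1 to 5, against -1.49 to 2.57 (median -0.73) in prostate. In Slc5a12, a lactate transporter of the brush border, the graft values were 10.77, 5.99, 12.29, 8.52 and 13.18 and those of prostate -0.91 to 3.38 (median 0.11). Both genes ranked the grafts in the order of Slc34a1, with grafts 5 and 3 at the top, grafts 1 and 4 between and graft 2 at the bottom. Their log2 fold changes against prostate were 9.88 (SE 1.39, adjusted p = 1.31e-04) and 9.60 (SE 1.23, adjusted p = 6.68e-05) by limma.

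Lrp2 encodes megalin, the endocytic receptor that takes up filtered proteins together with cubilin. Its graft values were 11.49, 7.07, 12.08, 8.18 and 12.99, those of prostate 0.37 to 4.18 (median 2.47) and those of MEFs 7.07 to 8.40 (median 7.55). Lrp2 was thus present in every MEF library, and graft 2 lay at the lower end of the MEF range. The log2 fold change was 7.94 (SE 1.07, adjusted p = 1.00e-04) against prostate and 2.68 (SE 0.96, adjusted p = 0.0287) against MEFs by limma, and the latter call was lost without graft 1, 3 or 5, without MEF library 3, 4 or 5, without MEF libraries 1 to 4 and under quantile normalization. Cubn, the gene of cubilin, was 4.99 log2 units above prostate and was not called against MEFs (log2 fold change 1.78, SE 0.74, adjusted p = 0.0521, by limma).

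The other transporters of the segment had no prostate library above 3 reads. Slc22a12, the urate transporter URAT1, was at least 191-fold higher than in prostate, Slc7a13, an amino acid transporter of the late proximal tubule, at least 124-fold, Slc5a2, the glucose transporter SGLT2, at least 66.7-fold, and Slc22a8, the organic anion transporter OAT3, at least 32.9-fold. Here and below, such bounds concern the mean of the log2 values of grafts 1 to 5 and set each prostate library at the value of 3 reads. They are not minima for single grafts. In graft 2, the lowest, Slc22a12 was 4.76 and Slc5a2 3.24. Slc22a8 ranked the grafts in the order of Slc34a1, but its spacing differed in graft 1. There it was 5.96, closer to the 5.08 of graft 4 than to the 10.03 of graft 3.

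Among the 13 enzymes and secreted proteins of the proximal tubule, 10 were higher than in prostate, 2 did not pass and 1 was not tested. Of the 12 tested, 6 passed the filter on low values only through the grafts and had to be higher there in their mean. Kap, the kidney androgen-regulated protein, is made in great abundance in the proximal tubule of male mice and lies in mm9 on chromosome 6, 133799873 to 133803685. Its log2 values were 15.84, 9.77, 16.997, 12.34 and 16.64 in grafts 1 to 5, and -2.21 to 6.12 (median -0.41) in prostate, and MEFs had -1.92 to 3.54 (median 1.04). Prostate library 1 stood apart with the highest value outside the grafts, while the other 5 prostate libraries held no more than 3 reads. The log2 fold change was 13.86 (SE 1.62, adjusted p = 3.71e-05) against prostate and 13.44 (SE 1.38, adjusted p = 9.38e-06) against MEFs by limma. Kap alone took 0.934% of all reads on genes in graft 3 and 0.0061% in graft 2.

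Acsm2, an acyl-CoA synthetase of proximal tubule mitochondria, had graft values of 13.49, 6.94, 14.97, 10.24 and 15.39 and prostate values of -2.74 to 4.30 (median -0.51). Miox, the myo-inositol oxygenase of the renal cortex, had 10.33, 4.27, 12.01, 7.11 and 12.28 in the grafts and -1.94 to 2.39 (median -0.25) in prostate. In both genes every graft lay above every prostate library. The log2 fold changes were 12.40 (SE 1.64, adjusted p = 8.50e-05) and 9.16 (SE 1.39, adjusted p = 2.28e-04) by limma.

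The gluconeogenic enzymes did not share 1 pattern. Pck1, the phosphoenolpyruvate carboxykinase, was 7.89 log2 units above prostate, and G6pc, the glucose-6-phosphatase, was at least 72.1-fold higher. Fbp1, the fructose-1,6-bisphosphatase, had 7.85 to 9.11 (median 8.72) in prostate and 10.84, 7.33, 12.21, 7.81 and 12.52 in the grafts, so that grafts 2 and 4 lay below every prostate library and the others above; its fold change did not pass (log2 fold change 1.51, SE 0.89, adjusted p = 0.17, by limma).

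Of the vitamin D enzymes, Cyp24a1, which inactivates the hormone, was called (log2 fold change 5.76, SE 1.29, adjusted p = 0.00282, by limma). Its mean over the grafts was at least 11.8-fold above prostate, although graft 2 held no more than 3 reads. Cyp27b1, which makes the active hormone, was not called (log2 fold change 0.50, SE 0.70, adjusted p = 0.565, by limma). The cytochrome Cyp4b1 (5.45), the acyl-CoA synthetase Acsm3 (4.11), the tyrosine catabolic enzyme Hpd (at least 18.6-fold) and Napsa, an aspartic protease of kidney and lung (6.34), were also higher, in log2 units where no fold is given. Cyp4a14 passed 3 reads in 2 grafts, with 4.47 in graft 5, and was too low to be tested.

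Compared per kilobase of exon, the levels of proximal tubule genes differed widely within a graft. In graft 5, Kap stood at 10842 RPM per kilobase, Acsm2 at 798, Slc34a1 at 792, Miox at 193, Slc22a6 at 138 and Lrp2 at 31.4. Of the later segments, Umod stood at 158 in that graft, Slc12a3 at 52.0 and Aqp2 at 37.9. In graft 2 the same scale gave 99.5 for Kap, 3.23 for Slc34a1 and 0.809 for Umod. Aqp1, the water channel of the proximal tubule and thin limb, also marks capillaries, and did not separate the groups: grafts 1 to 5 had log2 values of 11.80, 10.91, 11.96, 8.92 and 11.82, prostate had 10.01 to 10.64 (median 10.45) and MEFs had 8.498 to 13.03 (median 11.73).

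**Figure D2:**
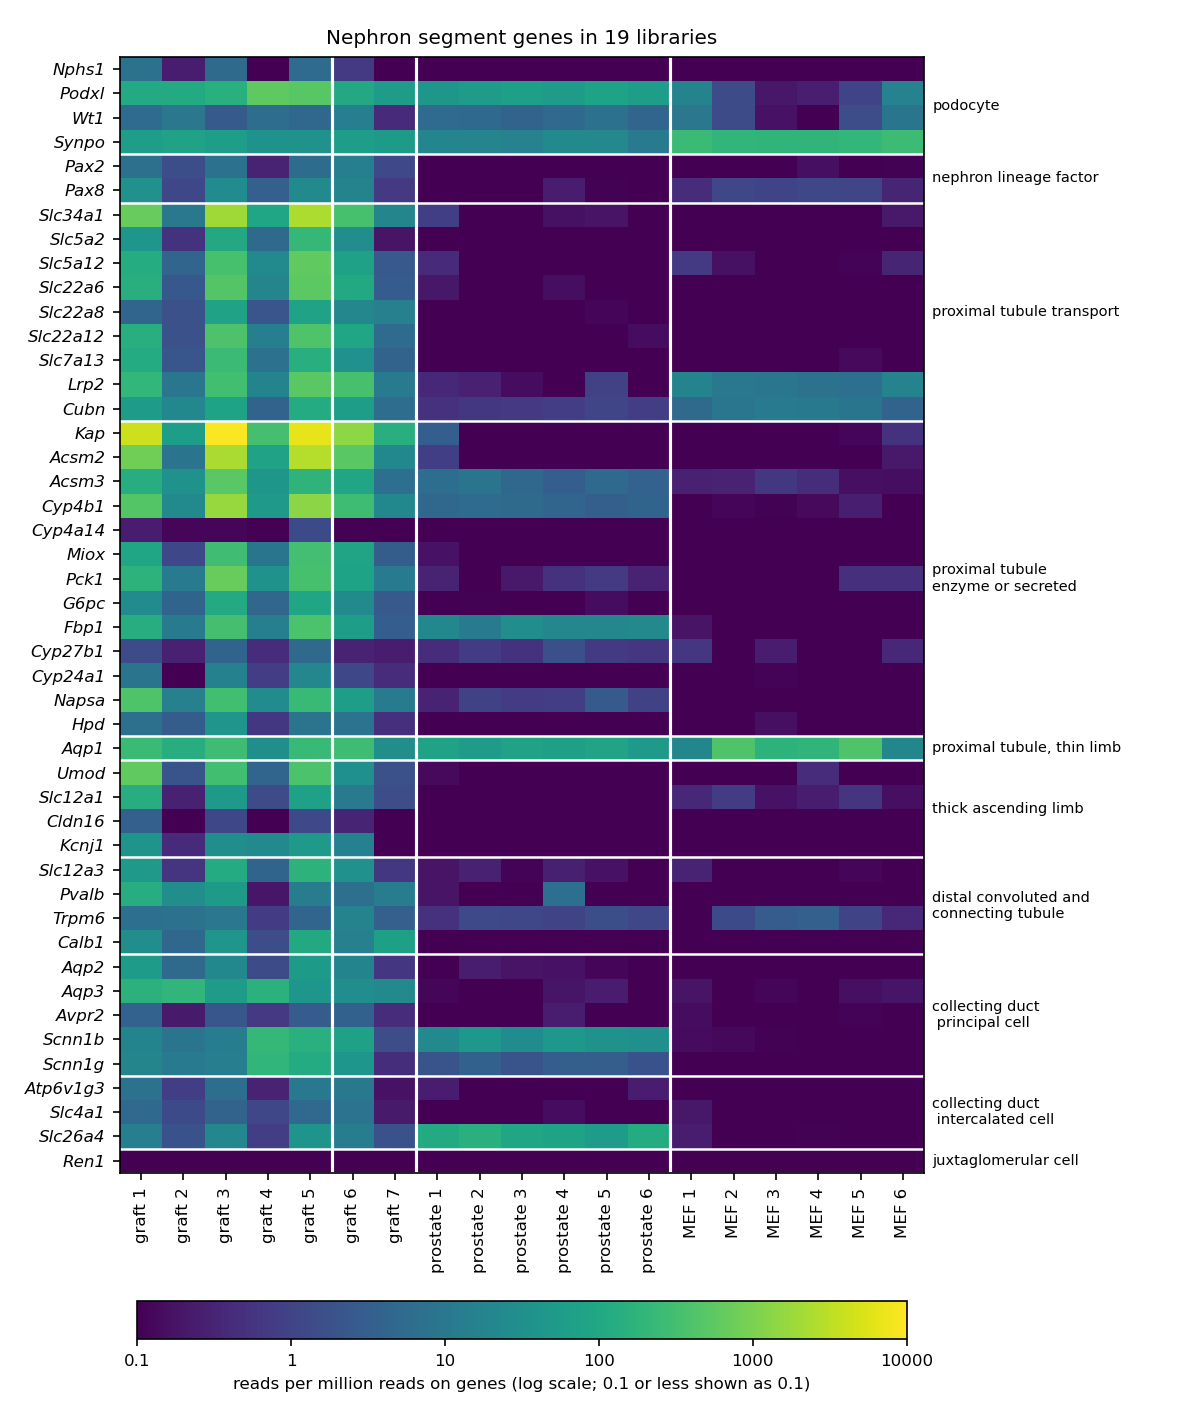
Level of each of the 46 members (rows, by segment) in the 19 libraries (columns), in RPM on a log color scale; white lines separate segments, grafts 1 to 5 from grafts 6 and 7, and the groups. Proximal tubule rows brighten together in grafts 1, 3 and 5 (Slc34a1 687, 1935 and 2443) and dim in graft 2 (9.98), while Ren1 is dark throughout.

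All 3 tested genes of the thick ascending limb were higher than in prostate. All 3 passed the filter on low values only through the grafts, so that they had to be higher there in their mean. Umod encodes uromodulin, the most abundant protein of normal urine, and lies in mm9 on chromosome 7, 126606380 to 126622769. Umod had log2 values of 13.06, 4.93, 12.05, 6.09 and 12.56 in grafts 1 to 5 and -1.65 to 2.11 (median -0.59) in prostate, where no library held more than 3 reads. The highest was thus graft 1 rather than graft 3 or 5, and the fold over prostate was at least 192 (log2 fold change 9.86, SE 1.52, adjusted p = 2.49e-04, as fitted by limma). Slc12a1, which encodes NKCC2, had 10.82, 2.50, 9.47, 4.58 and 10.13 in the grafts, while prostate had -2.005 to 1.47 (median -0.48) and MEFs had 2.15 to 4.04 (median 2.85) and overlapped graft 2. It was at least 40.6-fold above prostate, and its fold change against MEFs was 4.53 (SE 1.39, adjusted p = 0.0137) by limma. Kcnj1, the potassium channel ROMK, had 9.12, 2.87, 8.76, 8.59 and 9.56, so that graft 4 stayed close to the 3 grafts with high Umod while graft 2 lay far below. No prostate or MEF library held more than 3 reads of Kcnj1. Cldn16, a claudin of this segment, was too low to be tested and reached 5.63 in graft 1.

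Upstream sequences of the members were described as well. Of the 46 members, 35 had an entry in the RefSeq promoter table (GRCm38.p6), and the 250 bases before the start site were searched on both strands for GTTAAT, the half-site of HNF1 factors, which are known regulators of tubule genes, and for TATAAA, the TATA box. The half-site occurred in 9 of the 35 (25.7%), against 7.49% of all 27025 genes of the table. It occurred in 7 of the 17 proximal tubule members with an entry (Slc34a1, Slc22a6, Slc22a8, Acsm2, Miox, Pck1 and G6pc) and, of the 18 others, in Umod and Atp6v1g3. TATAAA also occurred in 9 of the 35, against 14.33% of all genes. Another motif, which is not named here, was searched and occurred in none of the 35. Windows of 30 bases around a match are shown for 6 genes of both segments and for Kap, the member with the largest fold change, 5′ to 3′ on the strand of the gene, with GTTAAT or its reverse complement in capitals, and TATAAA for Kap. Each matched 1 place on its chromosome in mm9.
Slc34a1: cttgggggtaaaGTTAATttaatggggaaa
Slc22a6: aatactcacaggGTTAATccttctgacacc
Acsm2: actacatctgtaATTAACaaaaactcaaat
Miox: ctgtactgatacATTAACttgctgaggtca
G6pc: cagtgtgcccaaGTTAATaattggctctgc
Umod: actgttttgccaGTTAATgtctaactgagg
Kap: gagtacaggatgTATAAAagcccaggagga
The windows lie at chr13:55500936-55500965 (plus strand), chr19:8692418-8692447 (plus), chr7:126697676-126697705 (plus), chr15:89164750-89164779 (plus), chr11:101228797-101228826 (plus), chr7:126622961-126622990 (minus) and chr6:133803699-133803728 (minus). The first base of the motif lay -61 relative to the start of Slc34a1, where a further match lay at -89, and -202 relative to that of Umod. A match is a description of the sequence and does not show that a factor bound there. Any part of these motifs in the graft levels was not tested.

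The distal genes were higher in grafts as well, with a mixed pattern among grafts. Of the 4 tested, 2 passed the filter on low values only through the grafts and had to be higher there in their mean. Slc12a3 encodes NCC, the thiazide-sensitive transporter of the distal convoluted tubule, and lies in mm9 on chromosome 8, 96853092 to 96890113. Its log2 values were 9.499, 3.28, 10.69, 6.02 and 11.38 in grafts 1 to 5 and -0.60 to 2.80 (median 2.30) in prostate, without overlap, with a log2 fold change of 6.28 (SE 1.35, adjusted p = 0.0022) by limma. Calb1, the calcium-binding protein of the connecting tubule, which neurons also express, was at least 53.7-fold above prostate. Trpm6, a magnesium channel, was called against prostate (log2 fold change 1.60, SE 0.55, adjusted p = 0.028, by limma) and not against MEFs (log2 fold change 1.76, SE 0.87, adjusted p = 0.0934, by limma), and the former call was lost without graft 1, 2 or 3, without prostate library 1, under quantile normalization, in the fit over all 3 groups and without prostate libraries 1 and 4.

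Pvalb, the calcium-binding protein of the early distal tubule, is also abundant in fast skeletal muscle. Pvalb had log2 values of 10.82, 8.76, 9.51, 2.20 and 7.60 in grafts 1 to 5, and prostate library 4 reached 6.99 while the other prostate libraries stayed at or under 2.44. The 8 skeletal muscle genes used as markers (Ckm, Acta1, Myh4, Myh1, Mylpf, Tnnt3, Actn3 and Atp2a1) summed to 6664, 3581, 4014, 287 and 78.4 RPM in grafts 1 to 5, and 7 or 8 of the 8 exceeded 3 reads in each. In prostate the sum was 269.6 to 524 and in MEFs 17.6 to 72.4. Pvalb was highest in graft 1, which also had the highest muscle sum, but graft 5 held 12.4 RPM of Pvalb beside the lowest muscle sum of the grafts, and graft 4 held 0.2 beside a muscle sum of 287. The part of muscle in the Pvalb result (log2 fold change 6.42, SE 1.72, adjusted p = 0.00806, by limma) was not tested.

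In the collecting duct, Aqp2, the vasopressin-regulated water channel of principal cells on chromosome 15, 99409487 to 99414976 in mm9, had log2 values of 9.59, 6.33, 8.22, 4.54 and 9.71 in grafts 1 to 5, against 0.63 to 2.61 (median 2.05) in prostate and -1.12 to 0.38 (median -0.52) in MEFs. The groups did not overlap, and graft 2 here stood above graft 4. Its log2 fold change was 5.80 (SE 0.88, adjusted p = 2.14e-04) by limma. Avpr2, the vasopressin receptor of these cells, was 3.56 log2 units above prostate. Aqp3, the basolateral water channel of principal cells and also of epidermis and other stratified epithelia, had 11.16, 11.47, 9.60, 11.28 and 9.38 in the grafts, so that grafts 2 and 4, lowest in nearly all tubule genes, were the highest in Aqp3. Prostate had 0.73 to 2.51 (median 1.78) and MEFs had 0.82 to 2.36 (median 2.04).

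The epithelial sodium channel subunits followed neither pattern. Scnn1g was 8.04, 7.36, 7.58, 11.58 and 10.84 and Scnn1b 7.98, 6.91, 7.51, 11.70 and 11.17 in grafts 1 to 5, with grafts 4 and 5 well above the other 3. Scnn1b was 9.38 ± 0.32 (SD, n = 6) in prostate and did not differ from it past the threshold (log2 fold change -0.32, SE 0.81, adjusted p = 0.749, by limma), whereas Scnn1g did (log2 fold change 3.40, SE 0.73, adjusted p = 0.00224, by limma). The 5 genes used as markers of epidermis and urothelium (Krt5, Krt14, Upk1b, Upk2 and Upk3a) summed to 1418, 1016, 366, 466 and 17.04 RPM in grafts 1 to 5, 219 to 327 in prostate and 0.566 to 20.7 in MEFs, with all 5 above 3 reads in each graft. Grafts 4 and 5, with similar Scnn1b and Scnn1g, differed in that sum, and the part of such epithelia in these values was not tested.

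Of the intercalated cell genes, Atp6v1g3, a subunit of the proton pump specific to these cells, had 6.75, 3.76, 6.53, 2.66 and 7.35 in grafts 1 to 5 and -1.64 to 2.77 (median 0.99) in prostate, with -3.07 to 0.86 (median -1.33) in MEFs. The graft and prostate ranges overlapped, since graft 4 lay below prostate library 1, and the log2 fold change was 4.56 (SE 1.08, adjusted p = 0.00397) by limma. Slc4a1, the anion exchanger AE1 of acid-secreting cells and of red cells, was at least 9.6-fold above prostate. Slc26a4, which encodes pendrin, the exchanger of base-secreting cells, was the 1 member called lower in the grafts than in prostate. Its log2 values were 7.62, 4.79, 8.16, 3.81 and 9.21 in grafts 1 to 5 against 10.03 to 11.46 (median 10.99) in prostate, so that every graft lay below every prostate library, with a log2 fold change of -4.15 (SE 0.86, adjusted p = 0.00173) by limma. Against MEFs the same gene was higher in the grafts (log2 fold change 5.24, SE 0.93, adjusted p = 4.81e-04, by limma).

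The 4 podocyte genes differed among themselves. Nphs1 encodes nephrin, the core of the slit diaphragm, and lies in mm9 on chromosome 7, 31243334 to 31272242. Its log2 values were 6.68, 2.34, 6.23, -0.30 and 6.49 in grafts 1 to 5, so that grafts 1, 3 and 5 held it, graft 2 was just above the value of 3 reads and graft 4 was under it. Prostate had -1.34 to 1.05 (median -0.27) and no prostate or MEF library exceeded 3 reads, and the mean fold over prostate was at least 6.00 (log2 fold change 4.52, SE 1.25, adjusted p = 0.00968, as fitted by limma). Wt1, a transcription factor of podocytes that stromal and mesothelial cells also express, was 6.33, 7.11, 5.28, 6.60 and 6.20 in the grafts, 6.34 to 7.07 (median 6.60) in prostate and 0.99 to 7.47 (median 4.96) in MEFs, and passed in neither comparison. Podxl, the sialoprotein podocalyxin of podocytes and endothelium, was 1.51 log2 units above prostate and was highest in graft 4, which lacked Nphs1; this call was lost in the fit over all 3 groups and without prostate libraries 1 and 4. Synpo, an actin-associated protein of podocytes, was 1.10 above prostate and 2.41 log2 units lower than in MEFs. The call against prostate was lost without graft 2 or prostate library 6.

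Pax8 and Pax2 encode the paired-box factors that specify the nephric lineage and stay on in parts of the tubule. The log2 values of Pax8 were 8.91, 4.28, 8.59, 5.78 and 8.58 in grafts 1 to 5, -0.87 to 2.61 (median 1.67) in prostate and 2.96 to 4.63 (median 4.48) in MEFs. Grafts 1, 3 and 5 were again the high ones, and graft 2 lay within the MEF range. The log2 fold change of Pax8 was 5.84 (SE 0.92, adjusted p = 2.88e-04) against prostate and 3.16 (SE 0.83, adjusted p = 0.00592) against MEFs by limma, and the latter call was lost under quantile normalization and without MEF libraries 1 to 4. Pax2 was at least 9.6-fold above prostate.

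Ren1 encodes renin, the protease of juxtaglomerular cells. It did not exceed 3 reads in any of the 19 libraries, and its largest value was 0.87. In the 5 grafts the log2 values were -1.99, -2.72, 0.71, -0.16 and -1.43. Ren2, a near-identical copy that was looked at after these values were seen, exceeded 3 reads in 7 libraries, of which 6 were the prostate libraries, and the adult globin genes Hba-a1, Hba-a2 and Hbb-b1, which have near-identical copies too, exceeded 3 reads in none. How reads shared by such copies were counted is not given in the sources used here, so that the Ren1 and Ren2 values are uncertain.

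Across grafts, most members followed the same order. In 36 of the 46 members, grafts 1, 3 and 5 all lay above grafts 2 and 4. These included all 9 proximal tubule transporters, 12 of the 13 enzymes and secreted proteins, all 4 thick limb genes and all 3 intercalated genes. The exceptions were Podxl, Wt1, Synpo, Cyp4a14, Pvalb, Trpm6, Aqp3, Scnn1b, Scnn1g and Ren1. Graft 5 was the highest in 21 members and graft 3 in 11, while graft 2 was the lowest in 29 and graft 4 in 13. The split of the grafts follows these same values. How often all genes tested show this split or these extremes was not counted, so that these numbers only describe the members. The range over the 5 grafts had a median of 5.45 log2 units over the members tested against prostate, where the median range of all 16353 genes tested was 1.19 and the 90th percentile 4.81.

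Relative to graft 5, segments differed in how far they lay below. In graft 1, the median difference in RPM was -1.83 log2 units for the proximal tubule transporters and 0.74 for the thick limb. In graft 4, the same medians were -4.87 and -4.32, and the 9 transporters kept within -5.28 to -4.30. The transporters thus shifted by a like amount in graft 4, whereas in graft 2 they spread from -8.57 (Slc5a2) to -2.45 (Cubn) around a median of -7.12. Among principal cell genes in graft 4, Aqp2 was at -5.28 and Avpr2 at -2.03, whereas Scnn1b (0.51), Scnn1g (0.72) and Aqp3 (1.89) were above graft 5. These are differences between single libraries, with no replicate of a graft.

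**Figure D3:**
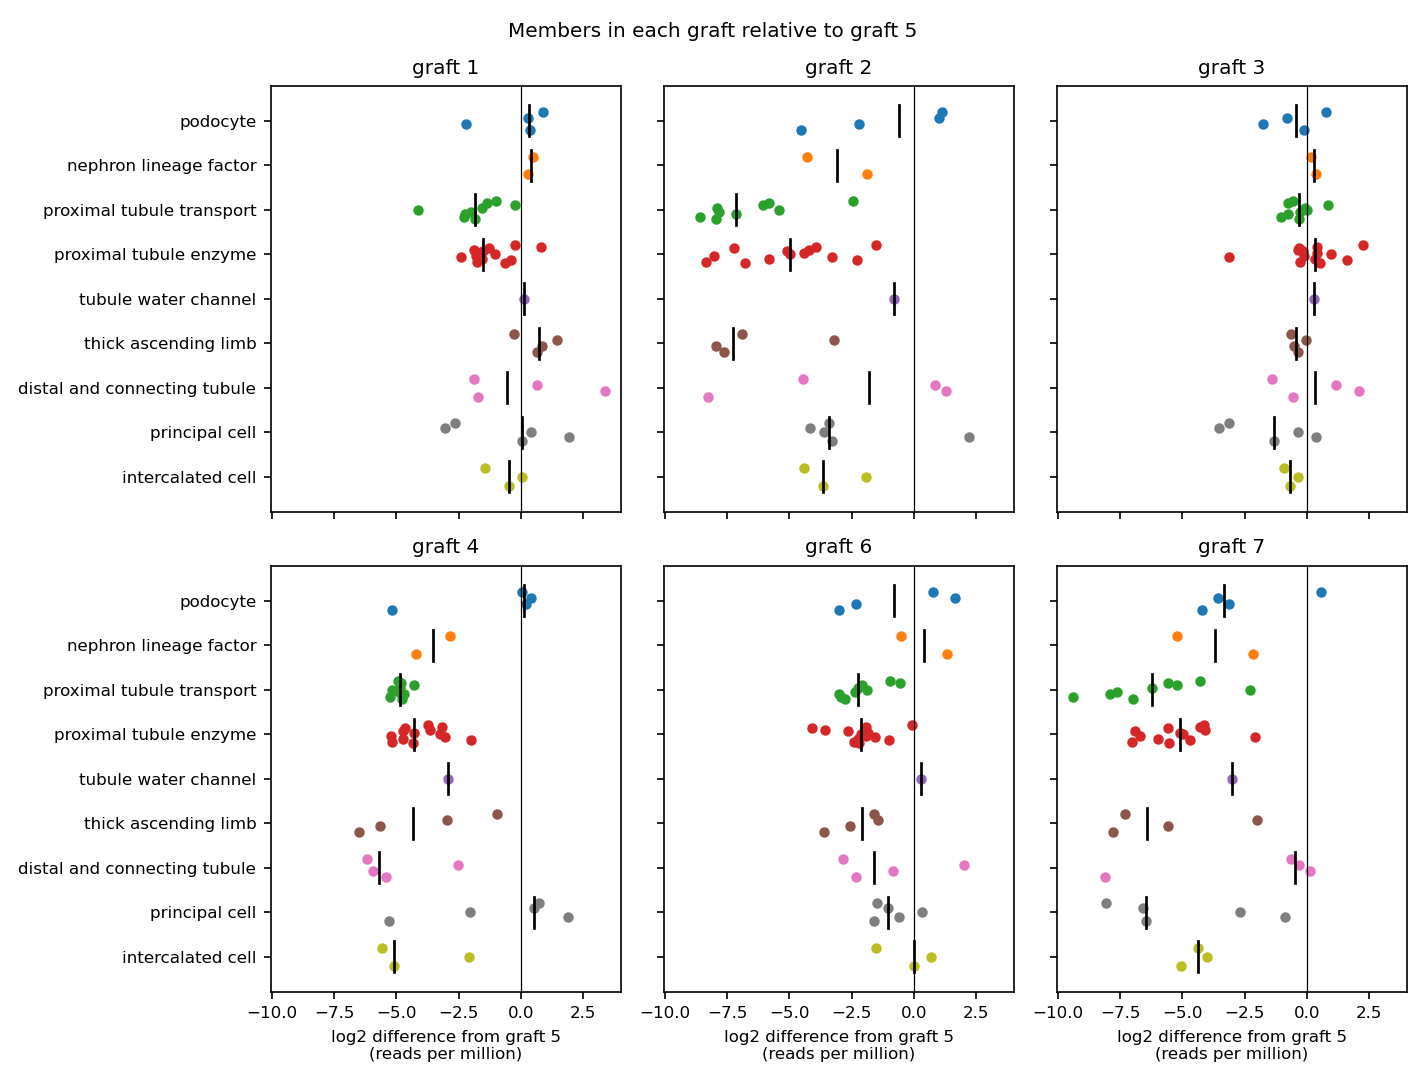
Difference of each graft from graft 5 in log2 RPM for the members above 3 reads in graft 5 (points, 1 per gene, by segment), with the segment median as a black bar; values under 3 reads were raised to that level. The proximal tubule transporters cluster near -4.87 in graft 4 and scatter around -7.12 in graft 2, while among podocyte genes in graft 4 Nphs1 lies at -5.16 and the others at 0.04 to 0.38.

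Together the 46 members took 0.972, 0.0835, 2.09, 0.205 and 1.94% of the reads on genes in grafts 1 to 5, 0.0312 to 0.0371% in prostate and 0.0327 to 0.065% in MEFs. The 9 proximal tubule transporters summed to 1522, 53.7, 3960, 182 and 5090 RPM in grafts 1 to 5, against 1.1 to 2.49 in prostate and 16.01 to 24.4 in MEFs, most of the MEF sum being Lrp2 and Cubn. Thick limb genes summed to 781, 2.71, 386, 30.2 and 512 in the grafts, 0 to 0.233 in prostate and 0.174 to 0.783 in MEFs. For the principal cell genes the sums were 258, 222, 105, 567 and 366 in the grafts and 26.3 to 50.5 in prostate. Between 42 and 45 of the 46 members exceeded 3 reads in each of these grafts. Graft 2 held 42 of them above 3 reads, and was the lowest graft in 29 members and the highest in 3.

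**Figure D4:**
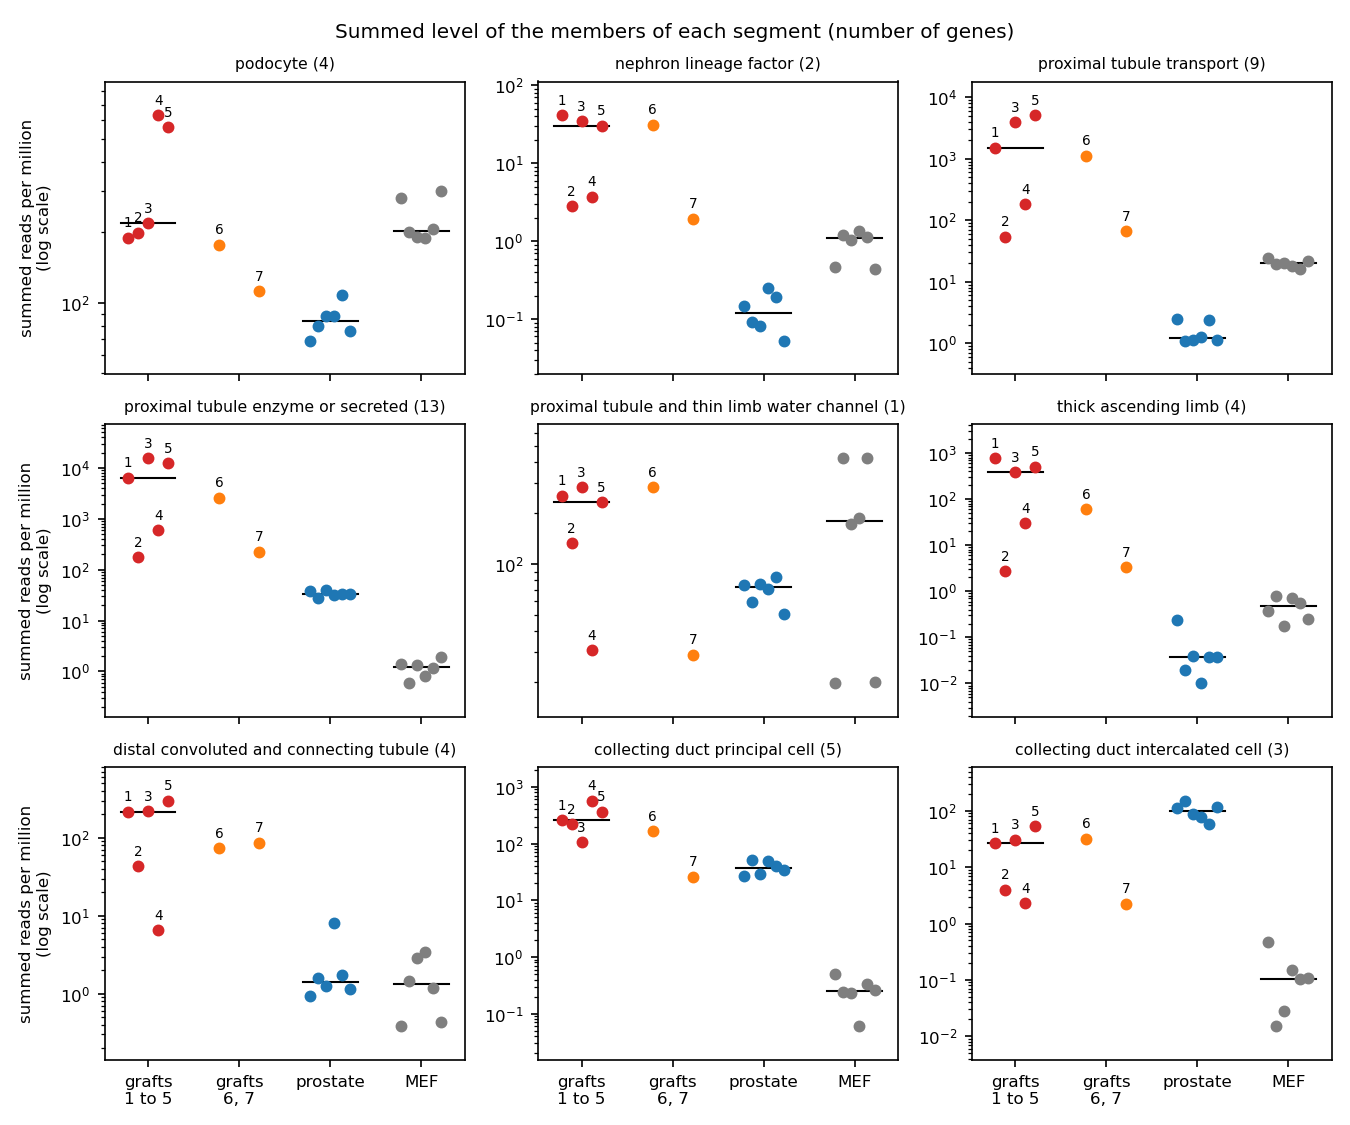
Summed RPM of the members of each segment (panels, number of genes in the title; juxtaglomerular Ren1 is left out) in each library on a log axis; numbers name the grafts and bars are group medians. Sums of the proximal tubule transporters reach 5090 in graft 5 and 53.7 in graft 2, while prostate exceeds every graft in the intercalated panel, where Slc26a4 dominates.

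Grafts 6 and 7, which stand in the other table and entered no test, are described in RPM, a scale on which separately normalized tables are set side by side. Graft 6 held 1411 RPM of Kap, 353 of Slc34a1, 351 of Lrp2, 32.4 of Umod and 17.8 of Aqp2. In graft 7 the same genes were at 143, 19.2, 11.1, 1.78 and 0.604. Graft 6 thus lay between grafts 1 and 4 in Kap and Slc34a1 but above grafts 1 and 3 in Lrp2, and graft 7 lay between grafts 2 and 4 in Kap and Slc34a1. Of the 46 members, 42 exceeded 3 reads in graft 6 and 37 in graft 7, which were also the libraries with the fewest reads. Calb1 was a departure, with 69.6 RPM in graft 7 against 15.4 in graft 6, and Slc22a8 held 15.4 in graft 7, more than the 4.31 of graft 1.

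Within libraries, ratios between members were examined for 7 pairs, chosen after the values were seen. The difference of Acsm2 from Slc34a1 was -0.24 to 0.25 log2 units in grafts 1 to 5, and 0.57 and 0.16 in grafts 6 and 7, although Slc34a1 itself ranged over 8.02 log2 units in the former. Other pairs of 1 segment varied more over grafts 1 to 5, with -0.34 to 0.80 for Slc5a12 over Slc22a6, 1.43 to 2.61 for Kap over Slc34a1 and 1.52 to 2.58 for Umod over Slc12a1, the last being 0.22 in graft 7. Pairs from different segments did not share 1 pattern. Slc34a1 exceeded Slc12a3 by 3.74 to 4.43 in these grafts, a narrower range than that of the last 3 pairs, but exceeded Umod by 0.17 to 4.35 and Aqp2 by 0.86 to 6.504.

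A trace of proximal tubule transcripts was also present in prostate library 1. It held 57 reads of Kap, 15 of Slc34a1 and 15 of Acsm2. In RPM these were 0.0341%, 0.0444% and 0.037% of the levels of graft 3, while Slc5a12 (7 reads) was at 0.116% and Lrp2 (7 reads) at 0.12%, and the difference of Acsm2 from Slc34a1 was -0.02. MEF library 6 held 12 reads of Kap, 5 of Slc34a1 and 5 of Acsm2. At such read numbers the ratios are imprecise. The call of each of these 3 genes against prostate held without prostate library 1.

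**Figure D5:**
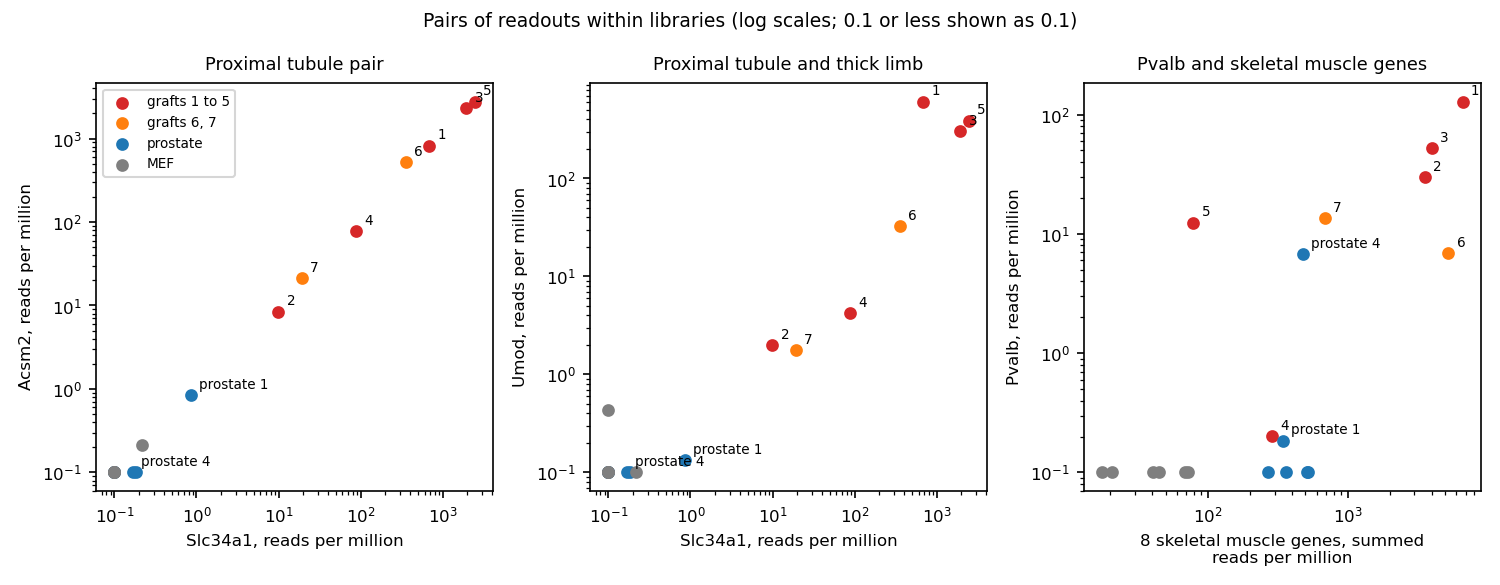
RPM, on log axes, of Acsm2 against Slc34a1 (left), Umod against Slc34a1 (middle) and Pvalb against the sum of 8 skeletal muscle genes (right) in each library; numbers name the grafts, and prostate libraries 1 and 4 are named. Acsm2 and Slc34a1 lie close to a common line from graft 2 (9.98 of Slc34a1) to graft 5 (2443) with prostate library 1 below (0.86), whereas Umod is highest in graft 1 (609).

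Further genes of each segment were counted by the same test. Their lists were drawn up from knowledge of the kidney, with earlier results of these data known. Of all genes tested, 23.0% were higher and 10.3% lower than in prostate. Genes with a prostate mean under the filter passed it only through the grafts and had to be higher there in their mean, and they were 28 of the 50 tested proximal tubule genes, 7 of the 10 of the thick limb, 3 of the 8 distal ones, 3 of the 8 of principal cells and 6 of the 9 of intercalated cells. Of 50 other proximal tubule genes, 39 were higher than in prostate, 2 lower and 9 not called, with a median log2 fold change of 6.29; Hnf4a, a hepatocyte nuclear factor of liver, gut and proximal tubule, was among the higher genes (10.89). Of 12 other thick limb genes, 7 were higher, 2 lower, 1 not called and 2 not tested (median 3.901). Of 8 other distal genes in the tables, 4 were higher and 4 not called (median 1.88), led by the kallikrein Klk1 (10.25). Among 9 other principal cell genes, 5 were higher, 1 lower, 2 not called and 1 not tested (median 2.77), and among 10 other intercalated genes, 8 were higher, 1 not called and 1 not tested (median 4.10), with Atp6v0a4, a proton pump subunit, at 6.85.

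Of the glomerular and embryonic lists, 1 of 9 tested podocyte genes, 2 of 8 juxtaglomerular, mesangial and endothelial genes and 3 of 15 embryonic genes passed the filter only through the grafts. Of 9 other podocyte genes, 6 were higher, 2 lower and 1 not called (median 1.45). Of 8 juxtaglomerular, mesangial and glomerular endothelial genes, 4 were higher, 2 lower and 2 not called (median 1.301). Of 16 genes of the embryonic kidney and nephron progenitors, 6 were higher than in prostate, 1 lower, 8 not called and 1 not tested, and their sum in RPM was 440.2, 413, 349, 489 and 269 in grafts 1 to 5. Their median log2 fold change was 0.79. The counts of these lists stand beside 23.0% higher and 10.3% lower among all genes tested against prostate. The MEF sums for the embryonic list were 304 to 544.

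Markers of other organs were present beside the nephron genes. The 6 lung markers summed to 335, 706, 509, 59.0 and 20.98 RPM in grafts 1 to 5, with 6 of 6 above 3 reads in grafts 1, 2 and 3, and to 0.1 to 0.798 in prostate. The 6 intestinal markers summed to 58.5, 1018, 701, 16.3 and 72.7, and the 9 liver or yolk sac markers in the tables to 56.3, 888, 445, 42.9 and 104. Over grafts 1 to 5, the markers above 3 reads numbered 2 to 6 for lung, 2 to 6 for intestine and 6 to 9 for liver or yolk sac. Grafts 2 and 3 were the highest in all 3 of these lists, whereas grafts 5 and 3 led the proximal tubule genes. Since lung, intestine and liver also express some members (Napsa in lung, Fbp1, Pck1, G6pc and Hpd in liver), their part in the values of these members was not tested. Sums for the 5 adrenal cortex markers were 7.99 to 11.3 in grafts 1 to 5 and 7.39 to 10.6 in prostate, and for the 3 thyroid markers 1.48 to 4.48 and 0.272 to 1.05. Of the 7 erythroid markers, 3 exceeded 3 reads in each of these grafts, and their sum was 5.88 to 20.4 RPM against 7.18 to 12.3 in prostate.

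All grafts grew under the kidney capsule, so that RNA of host kidney collected with a graft and RNA of nephron-like cells formed within it cannot be told apart by these levels. How reads of the rat mesenchyme were treated is not given in the sources used here.

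Between prostate and MEFs, 17 members could be tested, of which 9 were higher in prostate, 4 were lower and 4 did not pass, where 27.8% of all 14560 genes tested were higher and 20.5% lower. Slc26a4, Fbp1 and Scnn1b had the largest differences, with log2 fold changes by limma of 9.38, 8.95 and 8.26. The 4 lower members were Lrp2 (-5.26), Synpo (-3.51), Cubn (-3.20) and Pax8 (-2.67). The 3 comparisons share their groups, and their values are therefore given side by side only.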

How the data were processed

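RNA-seq libraries of renal grafts (7), prostate (6) and MEFs (6) were prepared by the authors from total RNA with a TruSeq kit. Per the labels, bcl2fastq 1.8.4, TopHat, Cufflinks and DESeq were used with the mouse assembly mm9; the counting of shared reads is not given in the sources used here. The deposited log2 values are normalized reads per gene after a variance-stabilizing transformation, in tables of 17 and 2 libraries with 23284 genes each. Values between 11.5 and 15 were whole reads times a constant of the library (100.0% within 0.05 reads), which gave the depth of each library; lower values carry added scatter, so that read numbers of low genes are estimates.

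The members and gene lists, and the tests, were chosen with earlier results of these data known; Ren2 and the ratios within libraries were added after the values were seen. Each comparison was fitted on the log2 values in R 4.3.3 with limma 3.58.1 (lmFit, then eBayes with trend), for genes whose linear mean over both groups reached 10, with Benjamini-Hochberg adjustment over all genes tested; edgeR and DESeq2 were not used, since no counts are at hand. The script was tested on simulated data first. Lower bounds set every library of the lower group at the value of 3 reads. Full values are given for 13 members named by role and for the 6 with the largest change in each direction against prostate without overlap (only 1 fell), and for others in brief; Fbp1, Kcnj1, Aqp1, Aqp3, Pvalb, Scnn1b and Scnn1g are given in more detail than this rule asks, which was decided after their values were seen. Positions and exon lengths are from GENCODE M1 on mm9, and upstream sequences from RefSeq. MEF libraries fell in 3 closer pairs, which still differed by more than sampling noise and were not merged. Other steps ran in Python 3.11.15 with pandas 2.3.3, numpy 2.4.6, scipy 1.17.1 and, for plots, matplotlib 3.10.9. The alternatives changed the filter, the pseudocount, the normalization, the fit and the libraries included. Single values of some genes are not reported here.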

Additional observations from a re-analysis of the deposited data

Results flagged for a closer look

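In groups of 4 to 10 libraries, a member was noted where its highest or lowest library stood apart by Dixon's test at the 95% level; 6 of 102 sets of values did so, where chance alone gives about 5.1. Prostate library 1 stood above the others in Kap (6.12, others -2.21 to 0.37) and Slc34a1 (4.32, others 1.501 to 2.24), as described above. Prostate library 4 was high in Cyp27b1 (5.02, others 3.43 to 4.01). Graft 5 was high in Cyp4a14 (4.47, others 1.47 to 2.31), and graft 2 was low in Kcnj1 (2.87, others 8.59 to 9.56). MEF library 5 was high in Cyp4b1 (2.74, others 1.65 to 1.98), near the value of 3 reads. Grafts 6 and 7, which entered no test, held 38 and 24 members above 3 reads and above every prostate and MEF library, on deposited values of 2 tables that were normalized separately.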

How the results depend on the processing

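Except where given here, the counts of members called stayed within 1.5 times their value under every alternative run. Against prostate, leaving out 1 library at a time gave 36 to 38 higher and 1 lower, and quantile normalization gave 2 lower in place of 1, since Wt1 joined Slc26a4. Against MEFs, the same gave 36 to 40 higher and 1 lower, and between prostate and MEFs 8 to 10 higher and 3 to 4 lower. Raising the filter to a linear mean of 50 left 5 members higher in prostate than in MEFs in place of 9, since only 10 could then be tested. Setting values at or under 3 reads to 0 moved the Ren1 level of graft 3 from 0.03 to 0 RPM. Uncalled fold changes turned sign: against prostate, Cyp27b1 to -0.88 under quantile normalization and Scnn1b to 0.21 without graft 2 and 0.06 without graft 3 (over single libraries left out, -0.99 to 0.21); against MEFs, Wt1 to -0.42, Trpm6 to -0.31 and Aqp1 to 0.30 under quantile normalization, and Aqp1 without graft 2 or 4 or MEF library 2, 3, 4 or 5 (over single libraries left out, -0.53 to 0.53), and to 0.29 without MEF libraries 1 to 4; between prostate and MEFs, Trpm6 to -0.059 with a pseudocount of 10, -0.87 under quantile normalization, and below 0 without MEF library 1 or 6 (over single libraries left out, -0.38 to 0.52). The causes were not tested. The settings without prostate libraries 1 and 4 and without MEF libraries 1 to 4 were chosen after seeing the data. No paired analysis was possible because the labels give no replicate numbers; those used here follow the order of the records and only name libraries.

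Members near 3 reads cannot be ranked at this depth, and grafts 6 and 7, with fewer reads, miss more of them. The deposited values are already normalized and transformed, and no count test was run beside limma.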

Other observations

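The pair of embryonic kidney factors with the largest fold changes against prostate, among the 15 tested, was examined by value. Of these 15, 6 were higher than in prostate, 1 was lower and 8 were not called, beside 23.0% higher and 10.3% lower of all genes tested. The filter on low values was passed only through the grafts by 3 of the 15 against prostate and by 2 against MEFs. Foxd1, a factor of the renal stroma, had log2 values of 5.41, 4.06, 6.95, 5.44 and 5.60 in grafts 1 to 5 and was 5.97 log2 units above prostate but 1.66 lower than in MEFs (adjusted p = 0.0234) by limma. Lhx1, which acts in the early nephron, had 5.83, 4.62, 7.11, 2.54 and 6.48 and was 5.48 above prostate and 4.81 above MEFs. Against MEFs, 5 of the 15 tested genes of that list were higher and 5 lower, beside 29.9% and 12.0% of all genes tested. Hnf4a had 11.20, 11.55, 12.75, 10.08 and 12.41 in grafts 1 to 5, so that graft 2, lowest in most proximal tubule members, lay above graft 1 in this factor, beside its high intestinal and liver marker sums.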
